A study of Mus musculus with 9 samples.

Results

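Transcript levels of 10 genes of the transforming growth factor beta (TGF-beta) system were followed across 9 mouse hearts. They are the ligands Tgfb1, Tgfb2 and Tgfb3, the latent binding proteins Ltbp1, Ltbp2, Ltbp3 and Ltbp4, and the intracellular inhibitors Smad6, Smad7 and Skil. The genes were chosen by symbol, as 10 of the 21989 symbols in the deposited expression table, and all 10 passed the filter on low values. Hearts came from male C57BL/6J mice labelled 18 to 20 weeks old, in 3 groups of 3. LD hearts came from mice with TAC, read here as transverse aortic constriction, an operation that narrows the aorta and loads the left ventricle with pressure, that received Lingguizhugan decoction, a Chinese herbal preparation. TAC hearts came from operated mice given distilled water, and Sham hearts from sham-operated mice also given distilled water. All groups share the strain and sex, and no allele or transgene is named. The labels state neither the dose of the decoction nor the time between operation and tissue collection. The labels speak of 3 biological repeats. That each library is a separate mouse is assumed, and on that reading p-values measure the spread between these hearts.

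TGF-beta ligands are secreted as inactive complexes in which a cleaved propeptide stays wrapped around the ligand. Latent TGF-beta binding proteins tether such complexes to fibrillin and fibronectin in the matrix, from which integrins, proteases and mechanical tension can release the ligand. Released ligand signals through paired type I and type II receptors to Smad2 and Smad3, a pathway best known in the heart for turning fibroblasts into matrix-producing myofibroblasts. Smad6, Smad7 and Skil are themselves induced by ligands of this family and oppose the signal, so their transcripts are often read as part of the response as well as its restraint.

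Expression is given as FPKM, the fragments of a gene per kilobase of its length and per fixed number of fragments in the library. The values are whole multiples of a smallest step in each library, and the sums of these recovered whole numbers ran from 7414304 to 18079383 per library. In 4 libraries (TAC 2, TAC 3, Sham 1 and Sham 3), 87.2% to 90.2% of the genes holding 21 to 100 steps held an even number of them. The share was 48.0% to 51.3% in the other 5, which include all 3 LD libraries, TAC 1 and Sham 2. What sets the even-step libraries apart is not stated in the sources used here, and their steps need not be single fragments. Since no LD library is of that class, several differences of the 10 genes that involve LD are also given within the other 5. Differences of genes outside the 10 are given over all libraries only, and the part of the step class in them was not tested. All 10 markers fixed for ventricular muscle were present in the table and none was at 0 throughout. Their summed FPKM was 48410.5 to 76269.3 in LD, 37435.3 to 48763.7 in TAC and 48199 to 50844 in Sham hearts. LD 3 had the highest sum and TAC 3 the lowest. Summed FPKM of 10 fibroblast markers was 1113 to 1744 in LD, 1515 to 2516 in TAC and 986 to 1183 in Sham hearts. For 10 smooth muscle and pericyte markers it was 433 to 600 in LD, 491 to 634 in TAC and 392 to 461 in Sham hearts. Summed FPKM of 10 endothelial markers was 832 to 1101 in LD, 916 to 1147 in TAC and 952 to 1125 in Sham hearts. Summed FPKM of 8 atrial markers was 174 to 562 in LD, 107 to 462 in TAC and 72.05 to 108.2 in Sham hearts, with the highest sums in LD 3 and TAC 3, mostly from Nppa. Of that list, Bmp10 was at 0 in every library, and Myl7 was at 42.3 FPKM in LD 3, at 0 in TAC 3 and at most 7.51 elsewhere. Summed FPKM of 7 erythroid markers was 1205 to 2274 in LD, 2238 to 11052 in TAC and 516 to 3343 in Sham hearts, with TAC 2 highest. All 5 tested erythroid markers were above 0 for TAC against Sham (median 1.39) and all 5 below 0 for LD against TAC (median -1.37). Whole tissue cannot tell fewer cells of a type from less RNA per cell.

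After TAC, the members furthest above Sham were Ltbp2, a microfibril-associated member of its family, and Tgfb3. Mean Ltbp2 was 5.12 FPKM in TAC against 0.765 FPKM in Sham hearts, and mean Tgfb3 was 13.1 against 6.86 FPKM. Tgfb2 was the third member whose TAC hearts all lay above the Sham hearts. With the decoction, all 3 inhibitors lay below TAC in every heart. Smad6 averaged 4.62 FPKM in LD against 12.1 in TAC hearts, Skil 2.95 against 6.55, and Smad7 8.77 against 15.5. Ltbp2, Tgfb2 and Tgfb3 were higher in all LD than in all Sham hearts, and Smad6 and Skil lower. No difference of any member passed an adjusted p of 0.05, and neither did any of the 11380 genes tested (0% of them in each of the 3 comparisons). With voom on the recovered whole numbers, none of the 10 members passed. With limma's array weights, which count variable hearts less, Skil passed for LD against Sham (-0.89, adjusted p = 0.0456) and Smad6 in the F test of any group difference (adjusted p = 0.0395). Under these weights 135 of the 11380 genes passed for LD against Sham, and other genes passed in the F test as well.

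**Figure D1:**
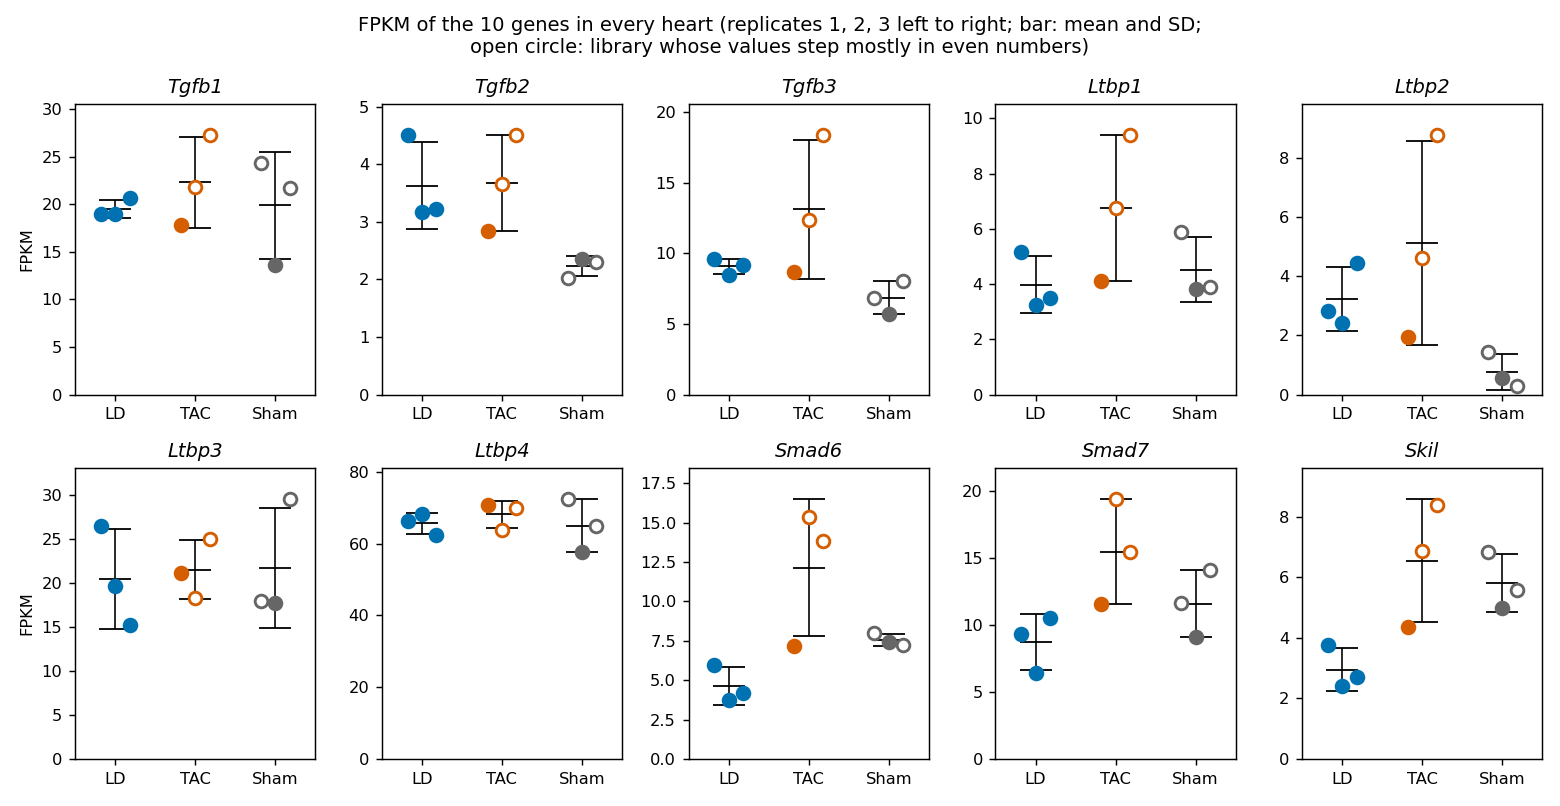
FPKM of each gene in every heart, with LD, TAC and Sham side by side, replicates 1 to 3 from left to right, and bars for the mean and SD of the 3 hearts. Open circles mark the even-step libraries. Smad6 and Skil are lowest in the 3 LD hearts, and Ltbp2 is lowest in the 3 Sham hearts.

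The members differed widely in level per length. Ltbp4 was the most abundant in each group, at 65.7 ± 2.95 FPKM in LD, 68.2 ± 3.76 in TAC and 65.1 ± 7.30 in Sham hearts (SD, n = 3 each), and its hearts never overlapped those of the next gene. Ltbp3 and Tgfb1 came next in each group and overlapped each other. In LD hearts, Tgfb3 and Smad7 formed the following pair with overlapping values. Below them, each of Smad6, Ltbp1, Tgfb2, Ltbp2 and Skil overlapped its neighbour in the order. In TAC hearts every neighbouring pair below Ltbp4 overlapped. In Sham hearts Ltbp2 was lowest and did not overlap Tgfb2, which in turn lay below Ltbp1. These orders rest on the gene lengths behind the FPKM. The values of Tgfb1 imply a length of 2179 bases, against 5042 exonic bases in the GENCODE M21 annotation of build GRCm38.

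Promoters of 3 members are shown, 1 for each role: a ligand, the binding protein with the largest difference after TAC, and the inhibitor with the largest difference under the decoction. RefSeq sequences of build GRCm38.p6 matched 7 of the 10 members. Tgfb3, Smad7 and Skil were not matched. Each window runs 5′ to 3′ on the minus strand, from 250 bases before the transcript start to 50 after it. Capitals mark CAGAC, a Smad box, GGGCGG, a GC box, each on either strand, and TATAAA, the TATA box.
Tgfb2 (chr1:186705940-186706239): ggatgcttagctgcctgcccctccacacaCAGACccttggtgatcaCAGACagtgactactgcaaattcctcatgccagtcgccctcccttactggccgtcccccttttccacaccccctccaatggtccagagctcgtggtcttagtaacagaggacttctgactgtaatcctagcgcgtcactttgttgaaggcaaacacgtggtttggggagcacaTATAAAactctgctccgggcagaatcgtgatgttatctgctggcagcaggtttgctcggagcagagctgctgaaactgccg
Ltbp2 (chr12:84876442-84876741): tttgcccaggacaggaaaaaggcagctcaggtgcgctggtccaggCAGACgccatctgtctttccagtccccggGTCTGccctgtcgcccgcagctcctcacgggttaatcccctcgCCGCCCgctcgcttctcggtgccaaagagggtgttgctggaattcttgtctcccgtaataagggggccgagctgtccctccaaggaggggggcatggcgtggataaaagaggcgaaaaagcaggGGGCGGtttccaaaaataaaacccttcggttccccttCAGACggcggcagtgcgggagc
Smad6 (chr9:64022010-64022309): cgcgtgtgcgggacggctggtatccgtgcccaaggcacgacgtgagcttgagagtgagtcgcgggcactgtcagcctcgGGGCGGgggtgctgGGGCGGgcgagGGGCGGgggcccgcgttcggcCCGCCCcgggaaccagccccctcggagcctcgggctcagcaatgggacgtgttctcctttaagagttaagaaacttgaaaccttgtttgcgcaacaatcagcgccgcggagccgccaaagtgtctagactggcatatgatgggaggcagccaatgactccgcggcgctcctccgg

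The Tgfb2 window held 2 copies of CAGAC and 1 TATAAA. The Ltbp2 window held 3 copies of CAGAC and 2 of GGGCGG, and the Smad6 window held 4 copies of GGGCGG and no CAGAC. Of 32851 promoter windows of the same length, 49.6% held CAGAC, 35.7% GGGCGG and 13.6% TATAAA on either strand. Also searched on both strands were the GC-rich Smad element GGCGCC (11.9% of windows), the AP-1 site TGANTCA (7.81%) and the cAMP element TGACGTCA (1.79%). None of these was in any of the 3 windows. A match describes the letters of the window and not a bound site.

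Among the ligands, Tgfb1, the most widely expressed isoform, did not separate the groups. Its level was 18.9, 18.9 and 20.6 FPKM in LD, 17.8, 21.8 and 27.3 in TAC and 24.4, 13.6 and 21.7 in Sham hearts. The 3 ranges overlapped, and the log2 difference of TAC and Sham was 0.18 ± 0.26 (SE). Here and below, differences are on the log2(FPKM + 1) scale, which understates the change of low genes, and were tested with limma over all tested genes.

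Tgfb2, an isoform that acts in heart valve development, had 4.51, 3.17 and 3.22 FPKM in LD hearts, 2.85, 3.66 and 4.52 in TAC hearts and 2.03, 2.36 and 2.30 in Sham hearts. Both sets of operated hearts lay wholly above the Sham hearts and overlapped each other. The difference of TAC and Sham was 0.52 ± 0.27 (95% interval -0.06 to 1.10, unadjusted p = 0.0764), and that of LD and Sham was 0.51 ± 0.27 (unadjusted p = 0.0816). The gene lies on chromosome 1 (186622792 to 186705989, minus strand), where its exons share bases with the antisense gene Gm29491. The kit text names no step that marks the strand, so reads of such partners cannot be told apart.

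Tgfb3 is the third ligand and binds the same receptors as Tgfb1. It had 9.59, 8.48 and 9.14 FPKM in LD, 8.65, 12.3 and 18.4 in TAC and 6.85, 5.72 and 8.02 in Sham hearts. All operated hearts exceeded the highest Sham heart, and the LD hearts lay at the low end of the TAC values, with LD 2 below them. TAC exceeded Sham by 0.80 ± 0.28 (95% interval 0.19 to 1.40, unadjusted p = 0.0135, adjusted p = 0.774). Without TAC 3, the highest heart, the difference was 0.54. LD differed from TAC by -0.43 ± 0.28 (unadjusted p = 0.148) and from Sham by 0.37 ± 0.28 (unadjusted p = 0.215). The value for LD against TAC was -0.17 without TAC 3 and -0.68 without TAC 1.

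The mix of the ligands was described as shares of their summed FPKM. Tgfb3 made up 28.2 ± 0.74% in LD, 32.9 ± 3.56% in TAC and 24.0 ± 3.02% in Sham hearts (SD, n = 3 each). Tgfb1 made up 60.6 ± 2.83%, 57.6 ± 3.19% and 67.9 ± 5.26% in the LD, TAC and Sham hearts. These shares rest on the gene lengths behind the FPKM. Of the recovered whole numbers, which are not per length, Tgfb1 made up 45.8%, 43.5% and 54.3% in the LD, TAC and Sham hearts. Tgfb3 made up 33.1%, 38.7% and 29.7% of them. The summed FPKM of the ligands was 32.2 ± 1.41 in LD, 39.1 ± 10.5 in TAC and 29.0 ± 6.34 in Sham hearts, so the totals overlapped.

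Of the latent binding proteins, Ltbp2 had the largest difference of all 10 genes in both comparisons with Sham. Unlike its relatives, the protein does not bind latent TGF-beta and sits on elastic microfibrils. Its level was 2.82, 2.43 and 4.46 FPKM in LD hearts, 1.93, 4.63 and 8.80 in TAC hearts and 1.44, 0.550 and 0.304 in Sham hearts. Each operated heart exceeded each Sham heart, and the LD hearts lay inside the TAC range. The mean was 6.69-fold higher in TAC and 4.23-fold higher in LD than in Sham hearts. On the log2 scale, TAC exceeded Sham by 1.68 ± 0.41 (95% interval 0.79 to 2.57, unadjusted p = 0.00121, adjusted p = 0.523), the 26th smallest p of the 11380 genes. LD exceeded Sham by 1.29 ± 0.41 (95% interval 0.40 to 2.17, unadjusted p = 0.00782, adjusted p = 0.844).

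Ltbp2 values rest on small numbers, from 34 recovered whole numbers in Sham 3 to 592 in TAC 3. Both are even-step libraries, whose steps need not be single fragments, so these numbers may not compare with those of the other class. With a pseudocount of 0.1 instead of 1, the difference of TAC and Sham was 2.57 and that of LD and Sham 2.13. Leaving out single hearts moved the difference of TAC and Sham between 1.26 and 2.12. LD differed from TAC by -0.39 ± 0.41 (unadjusted p = 0.358), by -0.84 without TAC 1 and by 0.03 without TAC 3. The gene spans 84783212 to 84876532 on chromosome 12 (minus strand), and its exons share bases with the antisense gene D030025P21Rik. Of the fibroblast markers, all 10 were above 0 for TAC against Sham (median 0.84), and 7 of 10 for LD against Sham (median 0.18). Of the smooth muscle and pericyte markers, 9 of 10 were above 0 for TAC against Sham (median 0.20), and 6 of 10 for LD against Sham (median 0.10). Of 5 tested atrial markers, 3 were above 0 for TAC against Sham (median 0.33), and 4 for LD against Sham (median 0.65). The part of these cell types in the Ltbp2 difference was not tested.

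Ltbp1, which covalently binds the TGF-beta propeptides, had 5.16, 3.25 and 3.51 FPKM in LD, 4.10, 6.76 and 9.40 in TAC and 5.87, 3.81 and 3.90 in Sham hearts. The ranges overlapped in each comparison. LD differed from TAC by -0.60 ± 0.31 (unadjusted p = 0.0764) and TAC from Sham by 0.45 ± 0.31 (unadjusted p = 0.175). For TAC against Sham it was 0.72 without TAC 1 and 0.21 without TAC 3. For LD against TAC it was -0.36 without TAC 3. Within the other 5 libraries it was -0.06, and with the even-step class as a term in the fit -0.24.

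Ltbp3, which helps the secretion of latent complexes, ranged from 15.2 to 26.5 FPKM in LD, 18.3 to 24.9 in TAC and 17.6 to 29.5 in Sham hearts. Its log2 differences were 0.01 for TAC against Sham, -0.09 for LD against TAC and -0.08 for LD against Sham. Ltbp4, which also organises elastic fibres, ranged from 62.5 to 68.3 FPKM in LD, 63.9 to 70.8 in TAC and 57.8 to 72.4 in Sham hearts. The 95% interval of its difference for TAC against Sham was -0.36 to 0.51.

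Of the summed FPKM of the 4 binding proteins, Ltbp4 held 70.6% in LD, 67.5% in TAC and 70.8% in Sham hearts. Ltbp2 held 3.53 ± 1.45% in LD, 4.90 ± 2.90% in TAC and 0.825 ± 0.60% in Sham hearts (SD, n = 3 each).

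The inhibitors were the members whose LD hearts did not overlap the TAC hearts. Smad6 blocks chiefly the BMP branch by binding type I receptors and Smad1. It had 5.97, 3.73 and 4.17 FPKM in LD hearts, 7.18, 15.4 and 13.8 in TAC hearts and 7.99, 7.44 and 7.21 in Sham hearts. Every LD heart was below every other heart, and TAC 1 lay beneath the Sham hearts while TAC 2 and TAC 3 lay well above them. LD differed from TAC by -1.18 ± 0.30 (95% interval -1.82 to -0.54, unadjusted p = 0.00147, adjusted p = 0.40) and from Sham by -0.62 ± 0.30 (unadjusted p = 0.0558, adjusted p = 0.875). TAC differed from Sham by 0.56 ± 0.30 (unadjusted p = 0.0828), by 0.87 without TAC 1 and by 0.37 without TAC 2. The gene lies on chromosome 9 (63953076 to 64022059, minus strand) and shares no exonic bases with another annotated gene.

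Skil encodes SnoN, a repressor that holds Smad complexes inactive on their targets. Its level was 3.75, 2.40 and 2.71 FPKM in LD, 4.37, 6.88 and 8.40 in TAC and 6.85, 4.98 and 5.58 in Sham hearts. The LD hearts were again below all others, while TAC and Sham overlapped. The difference of LD and TAC was -0.91 ± 0.29 (95% interval -1.53 to -0.29, unadjusted p = 0.00700, adjusted p = 0.537). LD differed from Sham by -0.79 ± 0.29 (95% interval -1.41 to -0.17, unadjusted p = 0.0161, adjusted p = 0.875) and TAC from Sham by 0.12 ± 0.29 (unadjusted p = 0.678). Skil lies on chromosome 3 (31095058 to 31122577, plus strand).

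Smad7, which recruits ubiquitin ligases to the TGF-beta receptor, had 9.30, 6.45 and 10.5 FPKM in LD hearts, 11.6, 19.4 and 15.5 in TAC hearts and 11.6, 9.08 and 14.1 in Sham hearts. LD and TAC did not overlap, whereas LD and Sham did. LD differed from TAC by -0.75 ± 0.28 (95% interval -1.35 to -0.15, unadjusted p = 0.0180, adjusted p = 0.537) and from Sham by -0.37 ± 0.28 (unadjusted p = 0.204). TAC differed from Sham by 0.38 ± 0.28 (unadjusted p = 0.199). That value was 0.21 without TAC 2 and 0.23 without Sham 2. The value for LD against Sham was -0.19 without LD 2 and -0.23 without Sham 3. The gene lies on chromosome 18. Beside these inhibitor values, 1 of 10 fibroblast markers and 4 of 10 endothelial markers were above 0 for LD against TAC, with medians of -0.58 and -0.14. The part of these and of the erythroid transcripts in the inhibitor differences was not tested. Without TAC 2, the heart highest in erythroid markers, LD differed from TAC by -0.99 in Smad6, -0.86 in Skil and -0.58 in Smad7.

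Summed over the 3 inhibitors, FPKM was 19.0, 12.6 and 17.4 in LD, 23.1, 41.7 and 37.7 in TAC and 26.5, 21.5 and 26.9 in Sham hearts. All LD sums were below all others, and the TAC sums overlapped those of Sham. The ratio of the summed inhibitors to the summed ligands was 0.576, 0.411 and 0.528 in LD, 0.790, 1.10 and 0.751 in TAC and 0.797, 0.991 and 0.841 in Sham hearts. The LD hearts were below all others, and TAC and Sham overlapped. Single pairs of genes differed in this. The FPKM ratio of Skil to Tgfb3, chosen after the values were seen, averaged 0.323 ± 0.059 in LD, 0.506 ± 0.050 in TAC and 0.855 ± 0.152 in Sham hearts (SD, n = 3 each), with no overlap between any pair of groups. The ratio of Smad6 to Tgfb2 averaged 1.27 ± 0.078 in LD, 3.26 ± 0.856 in TAC and 3.41 ± 0.454 in Sham hearts, and TAC and Sham overlapped. No ratio, that of the sums included, was planned. Both pairs join a gene lower in all LD than in all Sham hearts with a higher one, so LD and Sham had to separate. Ratios of Smad6 to Smad7 and of Tgfb2 to Tgfb1 overlapped between all groups. Those of Tgfb3 to Tgfb1 and of Ltbp2 to Ltbp4 were higher in all operated than in all Sham hearts.

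**Figure D2:**
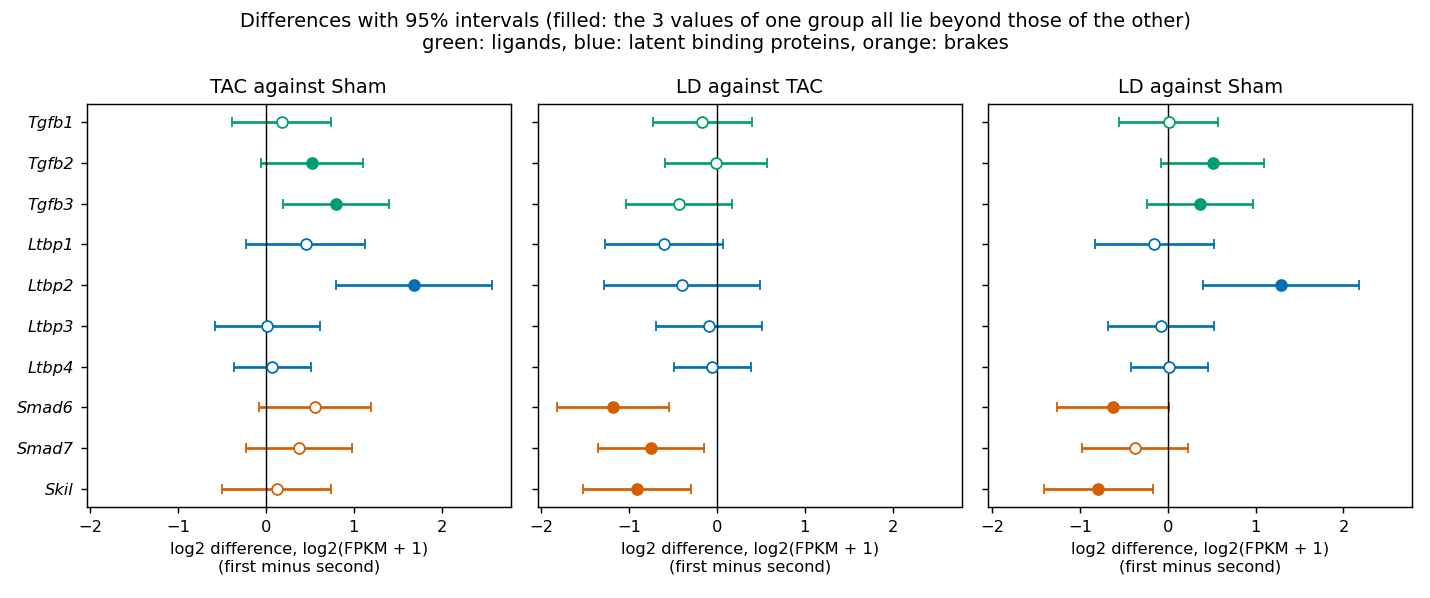
Differences on the log2(FPKM + 1) scale (x axis) with 95% intervals for each gene, first group minus second. Filled points mark genes whose 3 values in one group all lie beyond those of the other. Ltbp2 sits furthest right for TAC against Sham (1.68), and Smad6 furthest left for LD against TAC (-1.18).

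Counts over the members were set beside the same counts over all tested genes. For TAC against Sham, 3 of 10 members were higher without overlap, against 5.22% of all genes, and 2 had an unadjusted p under 0.05 and were higher, against 2.85%. None was lower in either way, against 4.62% and 2.58% of genes. All 10 differences were above 0, against 50% of genes, and their median was 0.41, against -7.2e-05. Within either step class 8 of the 10 were above 0, and without Sham 2, 7 of 10. For LD against TAC, 3 of 10 were lower without overlap (8.14% of all genes) and 3 had an unadjusted p under 0.05 and were lower (6.31%). None was higher in either way, against 3.73% and 2.51% of genes. All 10 differences were below 0, with a median of -0.41, against 60.4% of all genes and a median of -0.10. With median-of-ratios scaling 7 of the 10 were below 0, and with the step class as a term 5 of 10. For LD against Sham, 3 were higher without overlap (4.47% of genes) and 2 lower (8.76%). In that comparison 1 member each had an unadjusted p under 0.05 in the higher and in the lower direction, against 1.52% and 3.59% of genes. The differences split into 5 above and 5 below 0, against 37.2% and 62.8% of genes. The comparisons share hearts, so their counts are not independent. The F test of any group difference gave Ltbp2 the smallest p among the members (0.00314), followed by Smad6 (0.00531), Skil (0.0141) and Tgfb3 (0.0421). Their adjusted p-values in limma were 0.471 to 0.730. Of all genes, 6.76% had an unadjusted p under 0.05 in the F test and 0% an adjusted one.

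TAC 3 held the highest value of all 9 libraries for 6 of the 10 members, and TAC 1 was the lowest TAC heart for 8 of them. LD 2 was the lowest LD heart for 8, and Sham 2 the lowest Sham heart for 7. TAC 1 and Sham 2 are the TAC and Sham libraries outside the even-step class, the class of all LD libraries. TAC 3 also had the lowest FPKM sum over all genes (471009). The same counts were not taken over all tested genes, and the part of step class or tissue make-up in them was not tested.

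Within the even-step libraries alone, Ltbp2 differed between TAC and Sham by 2.06, Tgfb3 by 0.94, Smad6 by 0.86 and Tgfb2 by 0.68. Within the other 5 libraries, which hold 1 TAC and 1 Sham heart, the same genes differed by 0.92, 0.52, -0.04 and 0.20. For LD against TAC, those 5 libraries gave -0.56 for Smad6 (unadjusted p = 0.218), -0.46 for Skil (unadjusted p = 0.318) and -0.39 for Smad7 (unadjusted p = 0.372). The directions were those of the full data, and the sizes smaller. With the step class as a term in the fit, the values were -0.86 for Smad6 (unadjusted p = 0.0301), -0.60 for Skil (unadjusted p = 0.105) and -0.42 for Smad7 (unadjusted p = 0.222), so Skil and Smad7 no longer had an unadjusted p under 0.05. Tgfb3 then differed between LD and TAC by -0.08 and Ltbp2 by 0.12, and within the 5 libraries by 0.06 and 0.50. Against Sham, the LD value of Ltbp2 was 1.8 with the term (unadjusted p = 0.00198) and 1.42 within the 5 libraries (unadjusted p = 0.0142). LD and Sham differed there by -0.61 in both Smad6 and Skil, and by -0.30 and -0.47 with the term. Smad7 differed between LD and Sham by -0.07 within the 5 libraries and by -0.04 with the term, against -0.37 over all hearts. A lone library per group is assumed to vary like the LD hearts.

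**Figure D3:**
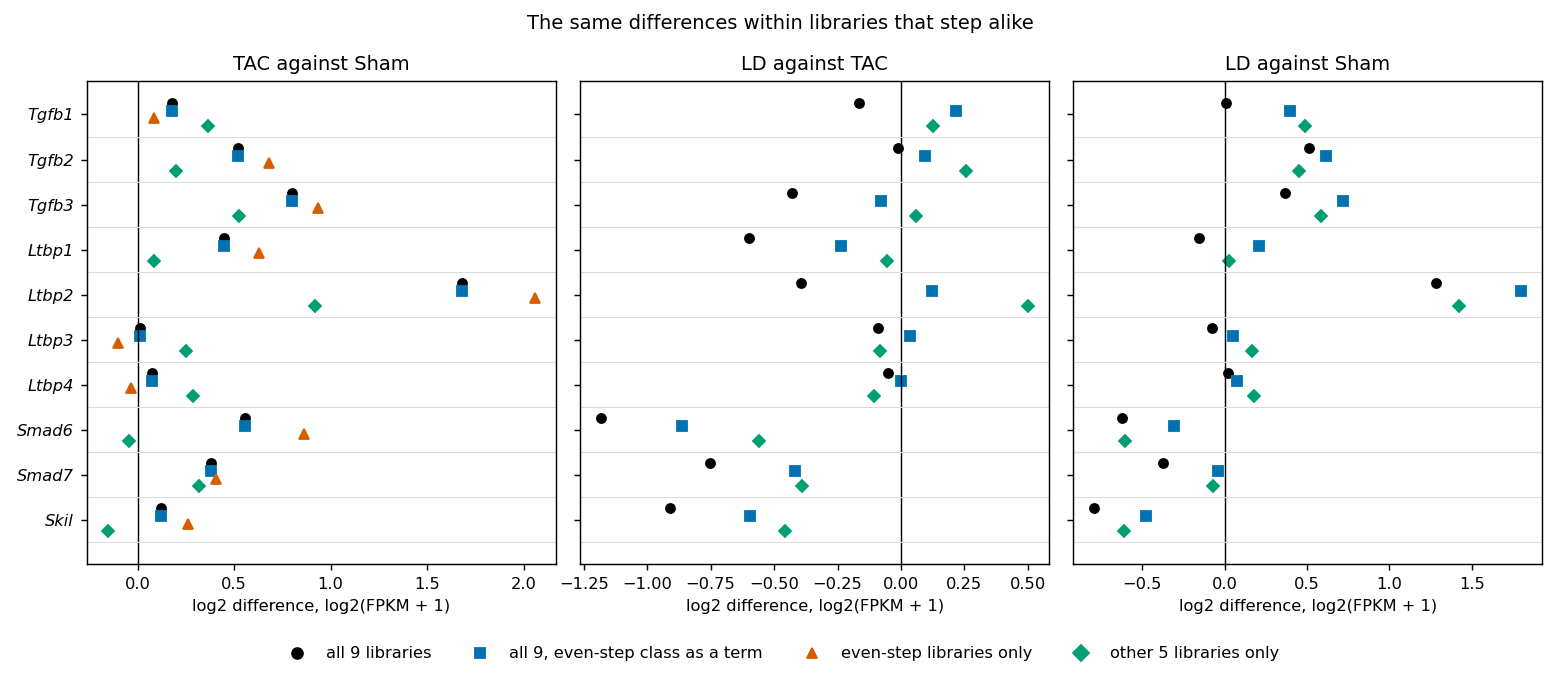
Differences on the log2(FPKM + 1) scale for each gene over all 9 libraries, with the step class as a term, within the even-step libraries (TAC against Sham only) and within the other 5. For LD against TAC, the inhibitors stay left of 0 in each setting, while Ltbp2 is at -0.39 over all libraries and at 0.50 within the other 5.

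The other genes of the pathway were taken from 8 lists with 88 tested entries, in which Pmepa1 stands on 2 lists, and none passed an adjusted p of 0.05. The list of TGF-beta response genes leaned furthest above 0 after TAC. Of its 18 tested members, 15 were above 0 for TAC against Sham with a median of 0.62, and 9 had an unadjusted p under 0.05 and were higher, 1 lower. Of all genes, 50% were above 0, 2.85% higher and 2.58% lower at that p. Beside this list, all 10 fibroblast markers were above 0, with a median of 0.84, and their part in it was not tested. Col1a1 stands in both sets. For LD against TAC, 14 were below 0 with a median of -0.42, and 2 were lower and 1 higher at that p, against 6.31% and 2.51% of all genes. Pmepa1, a Smad target that removes TGF-beta receptors, had 20.7, 12.8 and 12.1 FPKM in LD, 25.1, 37.8 and 49.7 in TAC and 20.0, 19.0 and 15.3 in Sham hearts. Its TAC hearts exceeded all others. It differed by -1.24 ± 0.29 between LD and TAC (unadjusted p = 0.000828, adjusted p = 0.366) and by 0.97 ± 0.29 between TAC and Sham (unadjusted p = 0.00506).

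Nox4, an oxidase induced in myofibroblasts, had 2.18, 1.79 and 1.17 FPKM in LD, 1.49, 2.86 and 9.36 in TAC and 0.215, 0.179 and 0.726 in Sham hearts. All operated hearts were above Sham, by 1.78 ± 0.44 for TAC (unadjusted p = 0.00124) and 0.99 for LD (unadjusted p = 0.0414). Timp1, an inhibitor of matrix proteases, had 3.33, 4.72 and 4.90 FPKM in LD, 8.42, 8.46 and 16.8 in TAC and 3.78, 1.08 and 6.26 in Sham hearts, so the TAC hearts stood above both other groups.

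Among 14 tested matrix partners of latent complexes, 4 were higher at an unadjusted p under 0.05 in TAC than in Sham hearts, and none was lower, against 2.85% and 2.58% of all genes. Mfap4, a microfibril glycoprotein that is also among the fibroblast markers, differed by 1.41 between TAC and Sham (unadjusted p = 0.000490). Elastin (Eln) differed by -0.94 between LD and TAC (unadjusted p = 0.00484) and by -0.65 between LD and Sham. The 11 other brakes and repressors had 10 members above 0 for TAC against Sham, against 50% of all genes, with a median of 0.20. For LD against TAC 10 were below 0, against 60.4% of all genes, with a median of -0.27. Tgif1, a Smad corepressor, had 0.404, 1.01 and 0 FPKM in LD, 2.47, 1.58 and 2.86 in TAC and 1.21, 0.771 and 1.43 in Sham hearts.

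The receptors and the Smad transducers had medians of 0.13 and -0.05 for TAC against Sham and -0.30 and -0.14 for LD against TAC. The median of all tested genes was -7.2e-05 for TAC against Sham and -0.10 for LD against TAC. Endoglin (Eng), an endothelial co-receptor, had 131, 131 and 91.4 FPKM in LD hearts, 212, 185 and 162 in TAC hearts and 195, 154 and 212 in Sham hearts. LD lay below both other groups, by -0.67 against each (unadjusted p = 0.0119 for TAC and 0.0116 for Sham). Eng was the only 1 of 11 tested receptors lower at an unadjusted p under 0.05 in either comparison, against 6.31% and 3.59% of all genes. No Smad transducer had an unadjusted p under 0.05 in any comparison. Of 17 tested genes that process or activate latent TGF-beta, 1 was lower at an unadjusted p under 0.05 for LD against TAC, against 6.31% of all genes. For LD against Sham 2 were lower, against 3.59%, and for TAC against Sham none differed at that p. Mmp14, a membrane-bound matrix protease, had the smallest p of the 17. It had 10.3, 15.7 and 7.73 FPKM in LD, 19.4, 26.1 and 26.9 in TAC and 19.5, 17.9 and 22.5 in Sham hearts, and LD differed from TAC by -1.08 ± 0.27 (unadjusted p = 0.00155). Hey1, a target of BMP and Notch signals, differed by -1.32 between LD and Sham (unadjusted p = 0.00363). It was the only 1 of 8 tested BMP ligands and response genes lower at an unadjusted p under 0.05 there, against 3.59% of all genes. In that list 7 were below 0, against 62.8% of all genes, with a median of -0.13, against -0.11.

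**Figure D4:**
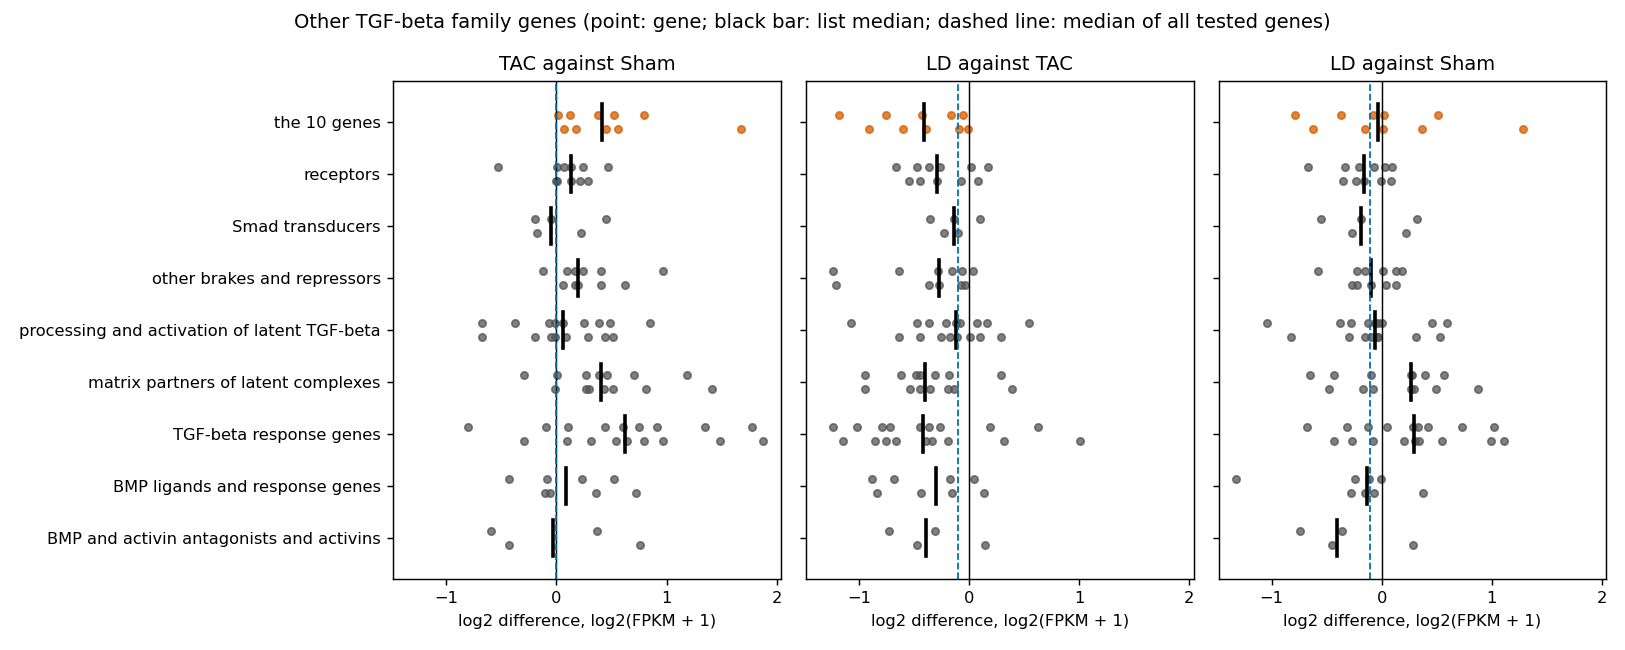
Differences on the log2(FPKM + 1) scale for the 10 genes and for each tested gene of the 8 lists, with a black bar at each list's median and a dashed line at the median of all tested genes. Response genes and matrix partners lie mostly right of 0 for TAC against Sham (medians 0.62 and 0.41) and left of 0 for LD against TAC (medians -0.42 and -0.40).

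For the 3 members with the smallest F test p, the tested genes of most alike pattern were sought by Pearson's r of log2(FPKM + 1) over the 9 libraries, which share the groups and step classes. For Ltbp2 they were Cilp (0.976), Dkk3 (0.971) and Itgbl1 (0.956). Dkk3 is also among the atrial markers. Cilp had 13.1, 12.3 and 24.8 FPKM in LD, 9.34, 27.2 and 47.2 in TAC and 4.20, 2.82 and 3.46 in Sham hearts. For Smad6 they were Crim1 (0.975), Sec23a (0.963) and Asah1 (0.961). Crim1, a transmembrane antagonist of BMPs, had 7.62, 5.88 and 5.85 FPKM in LD, 8.59, 14.4 and 12.2 in TAC and 9.03, 8.22 and 7.11 in Sham hearts. For Skil they were Klhl31 (0.975), Nono (0.972) and Socs7 (0.968), of which Klhl31, a muscle protein of the kelch family, had 27.2, 20.5 and 26.1 FPKM in LD, 34.3, 42.7 and 53.1 in TAC and 45.2, 32.3 and 36.2 in Sham hearts.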

How the data were processed

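Heart RNA, assumed to come from 9 separate mice, was sequenced after poly-T selection, per the labels' protocols. The submitters' processing notes list build GRCm38 and the tools Cufflinks 2.2.1, HISAT2 2.1.0, fastp 0.20.0, DESeq, CASAVA 1.8 and HTSeq 0.7.2, without their roles. The annotation is not given in the sources used here. FPKM values were deposited by the authors as 1 table with a column per sample, matched by name. FPKM are not counts, so log2(FPKM + 1) was fitted with limma 3.58.1 (R 4.3.3; empirical Bayes with trend, 6 residual degrees of freedom) over the 11380 genes that reached 1 FPKM in 3 or more libraries. All 3 groups entered 1 fit, tests were two-sided and p-values were adjusted by Benjamini-Hochberg over these genes. The pipeline was tested on simulated data. Whole numbers were recovered from the FPKM steps for 16262 genes (tolerance 0.001), and 5727 genes were at 0 in every library. Recovered sums were 7414304, 18042033 and 16031239 in LD, 8388732, 14849470 and 8944561 in TAC and 18079383, 14496717 and 14860567 in Sham libraries. Intervals cover the spread between hearts; counting error is greatest for Ltbp2.

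All 10 genes are named, with up to 4 genes per family list (smallest unadjusted p in any comparison) and the 3 genes most alike to 3 members. An item that this rule would name is not reported here. The members and lists were chosen with earlier results of these data known. Step classes were compared after the data were seen. Same-numbered replicates did not deviate together (9 pairs, r from -0.236 to 0.146), and the labels name no batch. Alternatives covered scaling, filters, pseudocounts, array weights, voom on the recovered numbers, a replicate block and single hearts left out. Shares were also taken of the recovered whole numbers.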

Additional observations from a re-analysis of the deposited data

How the results depend on the processing

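None of the 11380 genes passed an adjusted p of 0.05 in limma over all hearts. At an unadjusted p under 0.05 there were 618 for TAC against Sham, 1004 for LD against TAC, 581 for LD against Sham and 769 in the F test. A filter of 1 FPKM in every library, which leaves out Ltbp2, gave 2 calls for TAC against Sham, 3 for LD against Sham and 2 in the F test; array weights gave 9, 135 and 44, and voom on the recovered numbers 4, 3 and 3. A fit of the LD and Sham hearts alone gave 10, and TAC against Sham within the even-step libraries 6. Leaving out single hearts gave 0 to 13 calls for TAC against Sham, 0 to 8 for LD against Sham and 0 to 8 in the F test; the highest of each came without TAC 1. LD against TAC stayed at 0 calls in every setting. Members passed only with array weights: Skil for LD against Sham (-0.89, adjusted p = 0.0456) and Smad6 in the F test (adjusted p = 0.0395). The replicate numbers were not shown to pair the hearts, and with them as a replicate block 0 genes passed.

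Of 697 log2 differences of members under alternatives, 641 kept their direction and 56 turned, and 15 of the 30 differences kept it in all. In log2 units, the turned values for TAC against Sham were as follows. Ltbp3 was -0.0014 with median-of-ratios scaling, -0.0082 with quantile scaling, -0.095 without TAC 3 and LD 3 together, and -0.10 within the even-step libraries. Skil was -0.055 without those 2 hearts and -0.15 within the other 5, where Smad6 was -0.045, and Ltbp4 was -0.036 within the even-step libraries. For LD against TAC, median-of-ratios scaling gave 0.10 for Tgfb2, 0.044 for Ltbp3 and 0.087 for Ltbp4, quantile scaling 0.13 for Tgfb2 and 0.035 for Ltbp3, and array weights 0.023 for Ltbp4. Without TAC 3 and LD 3, Tgfb2 was 0.18, Ltbp3 0.20 and Ltbp4 0.0014. The step-class term gave 0.22 for Tgfb1, 0.094 for Tgfb2, 0.12 for Ltbp2, 0.036 for Ltbp3 and 0.0015 for Ltbp4, and the other 5 libraries 0.12 for Tgfb1, 0.26 for Tgfb2, 0.060 for Tgfb3 and 0.50 for Ltbp2. For LD against Sham, Ltbp3 was 0.043, 0.026, 0.022, 0.11, 0.050 and 0.17 with median-of-ratios, quantile scaling, array weights, without both hearts, with the term and within the other 5. Equal sums gave -0.076 for Tgfb1 and -0.071 for Ltbp4, leaving out both hearts -0.029 for Tgfb1, and Ltbp1 was 0.21 with the term and 0.029 within the other 5. Leaving out single hearts, TAC against Sham ranged from -0.062 to 0.34 in Tgfb1, -0.11 to 0.25 in Ltbp3, -0.0092 to 0.15 in Ltbp4 and -0.055 to 0.35 in Skil. LD against TAC ranged from -0.14 to 0.12 in Tgfb2, -0.84 to 0.030 in Ltbp2 and -0.29 to 0.094 in Ltbp3. LD against Sham ranged from -0.23 to 0.17 in Tgfb1, -0.32 to 0.015 in Ltbp1, -0.27 to 0.16 in Ltbp3 and -0.062 to 0.098 in Ltbp4. The median of all genes for LD against TAC was -0.10 as deposited, 0.010 with median-of-ratios scaling and -0.19 with equal sums. The cause of these changes was not tested.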
